A study of Mus musculus with 12 samples.

Results

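The sarcomeric myosin light chains and actins are the 7 genes Myl1, Myl2, Myl3, Myl4, Mylpf, Acta1 and Actc1, taken from the 19938 genes that the array measured with a transcript cluster of a single gene symbol. They were chosen by gene symbol, and each was represented by exactly 1 transcript cluster, the array's unit of measurement for a gene. RNA came from C2i-Myog cells, a stable derivative of the mouse myoblast line C2C12 with an added Flag-Myog cDNA under doxycycline control. Myog (myogenin) is a transcription factor that drives muscle genes during differentiation. All cells were switched near confluence to differentiation medium with 1% horse serum, insulin and transferrin for 48 h, and each of the 4 groups had 3 arrays. SB+Dox cells received the p38α/β MAP kinase inhibitor SB203580 at 10 µM together with doxycycline at 0.2 µg/mL, SB cells the inhibitor alone, Dox cells doxycycline alone, and control cells neither. Every group carried the transgene, so an effect of doxycycline itself cannot be told apart from that of the induced Myog, and the labels do not say whether the line is 1 clone or whether replicates were separate cultures. P-values therefore describe the spread between these arrays, which may be technical.

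In the sarcomere, myosin heavy chains pull on thin filaments built of actin. The neck of each heavy chain is stiffened by an essential and a regulatory light chain, and each light chain comes in isoforms that muscles use by stage and fibre type. Developing and cultured skeletal muscle cells switch on fast skeletal isoforms together with isoforms that the adult body keeps mainly for the heart, namely the embryonic and atrial light chain Myl4 and cardiac α-actin (Actc1).

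Values are log2 RMA signals, which ran from 0.5 to 13.17 over the table, and a difference of 1 on this scale is a 2-fold change. A gene is said to have risen, fallen or changed where limma's moderated test gave an adjusted p under 0.05 over all 21789 clusters of a single symbol, and "±" is the SD over 3 arrays. Replicates correlated at 0.989 to 0.996 over these clusters. SB replicate 3 stood apart from the other SB arrays on the second principal component (8.47, against -20.26 and -11.74), so results on SB cells were also computed without it. Defining skeletal genes were expressed, with desmin (Des) at 11.13 to 11.45 and Myod1 at 9.25 to 10.39 in group means. The cardiac markers Nppa, Nppb, Myh6, Tnni3 and Ryr2 had group means of 4.39 to 4.80, below the median cluster of every array (5.29 to 5.44), and the other 2 cardiac markers, Gata4 and Nkx2-5, had means of 6.63 to 7.24 and 6.25 to 6.43.

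The stretches upstream of transcription starts are shown for 4 of the 7 genes, because Myl4, Mylpf and Acta1 fell with the inhibitor and rose with doxycycline in its presence, and Actc1 is the actin set beside Acta1. Each is the 250 bases before a RefSeq start in build GRCm38.p6, 5′ to 3′ on the gene's strand, and capitals mark the motifs found on either strand. The motifs searched were the E-box CANNTG, bound by MyoD and Myog, with its form CAGCTG counted again separately, the MCAT element CATTCC of TEAD factors, the CArG box of serum response factor and the MEF2 box.
Acta1, chr8:123894776-123895025, minus strand: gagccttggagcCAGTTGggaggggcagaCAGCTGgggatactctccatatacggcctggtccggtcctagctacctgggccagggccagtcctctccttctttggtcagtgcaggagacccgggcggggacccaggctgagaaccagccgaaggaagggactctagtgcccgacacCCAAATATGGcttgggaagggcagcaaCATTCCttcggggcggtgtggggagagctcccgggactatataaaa
Actc1, chr2:114052876-114053125, minus strand: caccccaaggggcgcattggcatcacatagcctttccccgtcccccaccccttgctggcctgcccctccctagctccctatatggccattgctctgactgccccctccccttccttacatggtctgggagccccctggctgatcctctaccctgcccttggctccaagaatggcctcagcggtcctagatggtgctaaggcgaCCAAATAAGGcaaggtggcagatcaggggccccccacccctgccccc
Mylpf, chr7:127211358-127211607, plus strand: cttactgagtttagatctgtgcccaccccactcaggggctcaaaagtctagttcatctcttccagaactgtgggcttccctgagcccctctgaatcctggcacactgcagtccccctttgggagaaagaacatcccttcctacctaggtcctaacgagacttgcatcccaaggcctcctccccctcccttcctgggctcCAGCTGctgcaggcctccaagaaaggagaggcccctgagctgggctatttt
Myl4, chr11:104550413-104550662, plus strand: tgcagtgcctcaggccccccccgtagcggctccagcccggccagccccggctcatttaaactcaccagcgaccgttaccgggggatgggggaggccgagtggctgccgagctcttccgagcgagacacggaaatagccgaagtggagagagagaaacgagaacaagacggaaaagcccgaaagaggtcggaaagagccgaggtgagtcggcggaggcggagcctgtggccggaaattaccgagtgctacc

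The Acta1 window held a CArG box at -73 to -64 (CCAAATATGG), an MCAT element at -46 to -41 and E-boxes at -238 to -233 and -221 to -216, the second of the form CAGCTG. The Actc1 window held a CArG box at -47 to -38 (CCAAATAAGG) and no other motif searched. The Mylpf window held a CAGCTG E-box at -51 to -46. The single window listed for Myl4 held none of them, and its start was not shown to be the one these cells use. Of 32851 such windows in the table, 66.2% held an E-box, 13% the form CAGCTG, 12.6% an MCAT element, 1.47% a CArG box and 2.92% a MEF2 box. A CArG box also occurred in the Myl3 window, at -85 to -76, and CAGCTG in the Myl1 window and in 1 of the 2 Myl2 windows. MCAT elements also occurred in the Myl1 window, at -80 to -75, and in the Myl3 window, at -177 to -172 and -149 to -144. These matches describe the windows only, and starts of the genes without a window here were not examined.

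**Figure D1:**
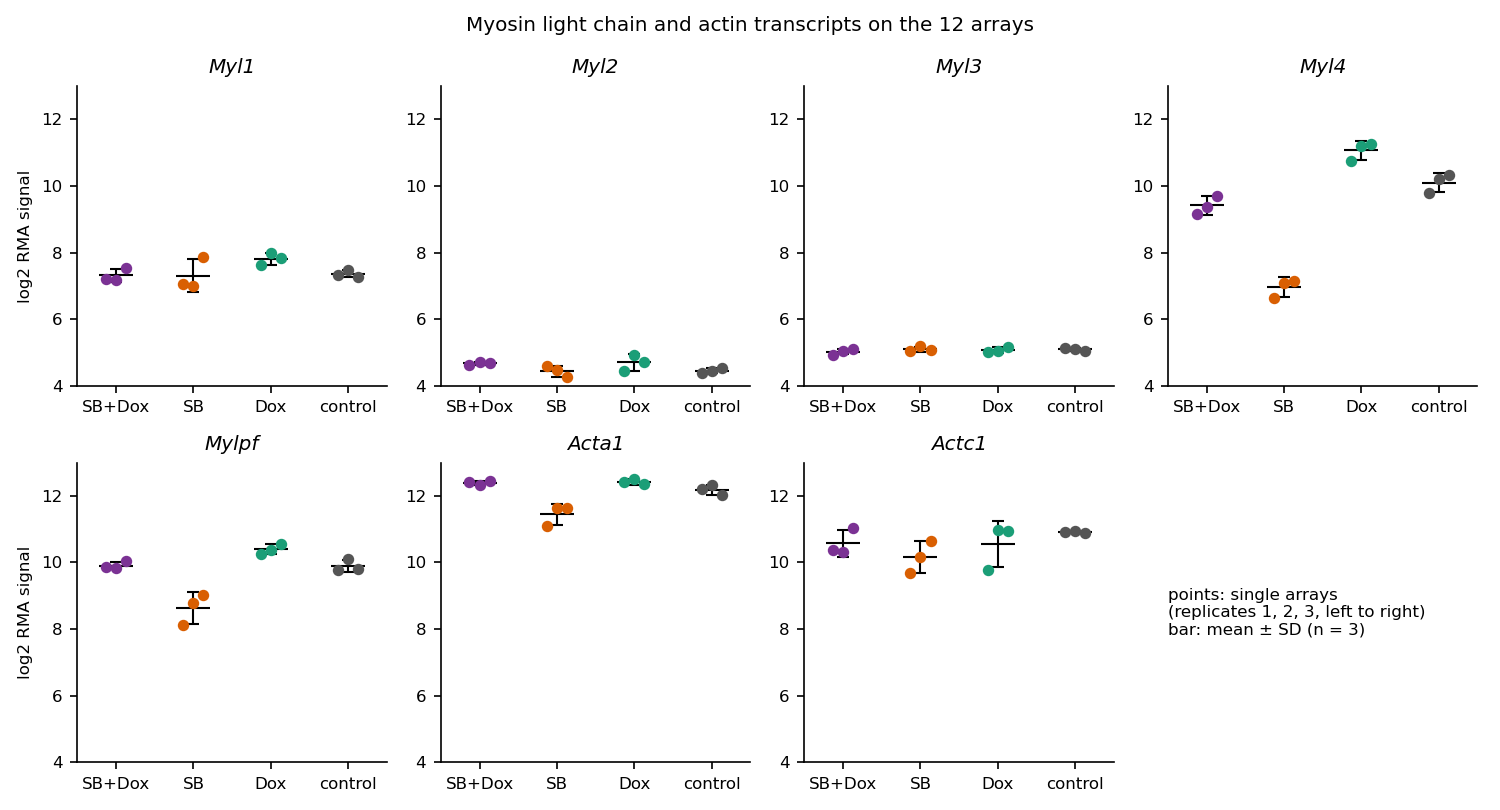
Log2 RMA signal (y axis) of the 7 genes on each of the 12 arrays, in SB+Dox, SB, Dox and control cells, with points for single arrays and bars for the mean ± SD (n = 3). Myl4 spans 6.63 to 11.26, Mylpf and Acta1 dip in SB cells, and Myl2 and Myl3 lie near 5 in every group.

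The essential light chains behaved unlike one another. Myl4, the embryonic and atrial isoform, measured 9.16, 9.38 and 9.71 in SB+Dox cells, 6.63, 7.10 and 7.16 in SB cells, 10.74, 11.21 and 11.26 in Dox cells, and 9.78, 10.20 and 10.32 in control cells. The 4 groups occupied 4 separate ranges, highest in Dox and then in control, SB+Dox and SB cells. SB cells had 8.8-fold less Myl4 than control cells (95% interval 6.65 to 11.6, adjusted p = 8.03e-07), and SB+Dox cells 5.47-fold more than SB cells (4.14 to 7.24, adjusted p = 1.17e-05). SB+Dox cells had 3.15-fold less than Dox cells (2.38 to 4.17, adjusted p = 4.54e-05), and Dox cells 1.96-fold more than control cells (1.48 to 2.6, adjusted p = 0.00568). Without SB replicate 3 the change in SB against control was -3.24 and that in SB+Dox against SB 2.55 (log2, adjusted p = 2.69e-06 and 1.85e-05). Myl4 was thus the member that passed in every comparison, although SB+Dox against control passed only just (1.61-fold lower, adjusted p = 0.04996).

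Myl1, the essential light chain of adult fast fibres, measured 7.22, 7.19 and 7.55 in SB+Dox cells, 7.06, 6.99 and 7.87 in SB cells, 7.62, 7.99 and 7.83 in Dox cells, and 7.34, 7.49 and 7.28 in control cells. The Dox arrays lay above all SB+Dox and all control arrays, while the SB arrays overlapped every other group. No comparison passed the test over all 12 arrays. Dox against control gave a log2 change of 0.44 (adjusted p = 0.269), SB+Dox against Dox -0.49 (adjusted p = 0.134) and SB against control -0.06 (95% interval -0.46 to 0.34). SB replicate 3 carried much of the spread: without it Myl1 passed in Dox against control (adjusted p = 0.0397) and in SB+Dox against Dox (adjusted p = 0.0136), and its change in SB against control was -0.34 (adjusted p = 0.138).

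Myl3, the essential light chain of slow fibres and the cardiac ventricle, lay between 4.94 and 5.19 on the 12 arrays, below the median cluster of each array. Its group means were 5.03 ± 0.09 in SB+Dox, 5.10 ± 0.08 in SB, 5.08 ± 0.08 in Dox and 5.10 ± 0.04 in control cells. Its 95% intervals for the log2 differences between groups all lay within -0.26 to 0.19. No background level was measured, so these values were not shown to lie above background and a change could be hidden at this level.

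The regulatory light chains also parted. Mylpf, the fast skeletal isoform, measured 9.85, 9.84 and 10.03 in SB+Dox cells, 8.11, 8.78 and 9.01 in SB cells, 10.25, 10.38 and 10.56 in Dox cells, and 9.78, 10.09 and 9.80 in control cells. All 3 SB arrays lay below the other 9, and the SB+Dox arrays overlapped the control arrays. Mylpf fell 2.39-fold in SB against control cells (1.84 to 3.11, adjusted p = 6.12e-04) and rose 2.42-fold in SB+Dox against SB cells (1.86 to 3.15, adjusted p = 7.38e-04). In order of level Dox led, followed by SB+Dox and control cells, and neither neighbouring pair above SB passed the test. SB+Dox against Dox gave -0.49 (adjusted p = 0.107), although all SB+Dox arrays lay below all Dox arrays, and it passed without SB replicate 1 (adjusted p = 0.0139) or SB replicate 3 (0.0495). Dox against control gave 0.51 (adjusted p = 0.145) with groups that did not overlap, and passed without SB replicate 1 (adjusted p = 0.0187).

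Myl2, the regulatory light chain of slow fibres and the ventricle, lay between 4.27 and 4.94, below the median cluster of all 12 arrays. Its means were 4.68 ± 0.05 in SB+Dox, 4.44 ± 0.17 in SB, 4.71 ± 0.25 in Dox and 4.46 ± 0.08 in control cells. The SB+Dox arrays lay above all SB and all control arrays, yet neither change passed (0.23 and 0.22, adjusted p = 0.294 and 0.424). As with Myl3, a signal above background was not shown.

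Acta1, skeletal α-actin and the main actin of the adult thin filament, was among the brightest clusters on the array, with 1 to 61 of the 21789 clusters above it. It measured 12.40, 12.32 and 12.44 in SB+Dox cells, 11.08, 11.62 and 11.62 in SB cells, 12.40, 12.51 and 12.35 in Dox cells, and 12.21, 12.31 and 12.01 in control cells. The SB arrays were the lowest 3 of the 12, and the SB+Dox arrays lay above all control arrays. Acta1 fell 1.67-fold in SB against control cells (1.37 to 2.03, adjusted p = 0.00334) and rose 1.93-fold in SB+Dox against SB cells (1.58 to 2.35, adjusted p = 7.39e-04). With single arrays left out, the log2 changes ran from -0.83 to -0.56 and from 0.77 to 1.04, with -0.83 and 1.04 without SB replicate 3. Dox (12.42 ± 0.08) and SB+Dox cells (12.39 ± 0.06) had nearly the same mean, with a 95% interval of the log2 difference of -0.31 to 0.25 for SB+Dox against Dox. The lead of SB+Dox over control did not pass (0.21, adjusted p = 0.506).

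Actc1, cardiac α-actin, which embryonic skeletal muscle also uses, measured 10.36, 10.31 and 11.04 in SB+Dox cells, 9.68, 10.17 and 10.64 in SB cells, 9.76, 10.98 and 10.95 in Dox cells, and 10.92, 10.94 and 10.89 in control cells. The control arrays were tight (SD 0.02), whereas the treated groups spread widely (SD 0.41, 0.48 and 0.70 in SB+Dox, SB and Dox cells). All SB arrays lay below all control arrays, with a log2 change of -0.75, close to that of Acta1, but the test did not pass (adjusted p = 0.18). It was not passed in any other comparison either. Without Dox replicate 1 the difference in Dox against control was 0.05 in place of -0.35 (adjusted p = 0.978). SB+Dox against Dox, at 0.01, had no settled direction: it was -0.39 without Dox replicate 1, -0.22 without SB+Dox replicate 3 and -0.04 after quantile normalisation.

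**Figure D2:**
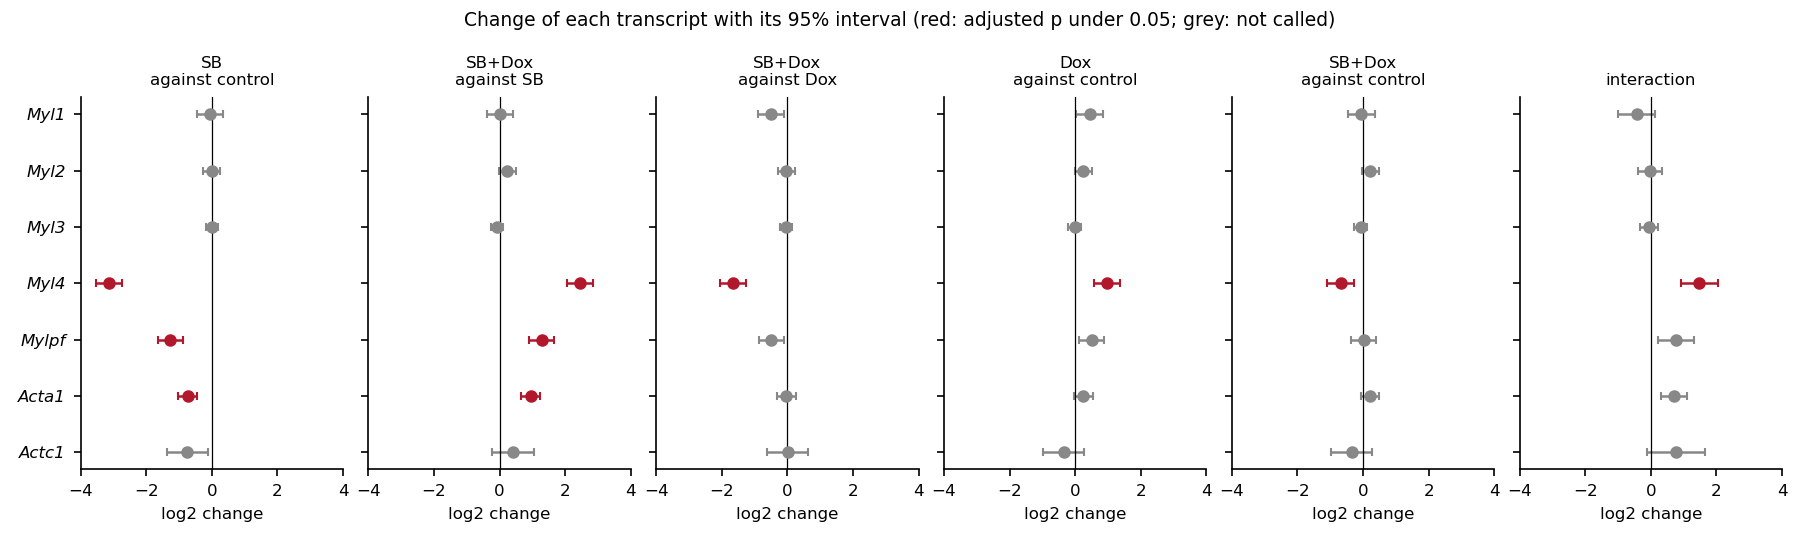
Log2 change (x axis) of each gene in the 5 comparisons between groups and in the interaction, with 95% intervals from limma, red where the adjusted p was under 0.05. Myl4 is red in all 6 panels, and Mylpf and Acta1 in SB against control and SB+Dox against SB.

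Set against all clusters, SB against control asked what the inhibitor did without doxycycline. Of the 7 genes 3 fell (Myl4, Mylpf and Acta1), where 3.87% of the clusters tested fell, 2.51% rose and 6.38% changed in either direction. The median log2 change was -0.74 for the 7 genes and 0.03 for all clusters. The groups did not overlap for 4 of the 7, against 20% of all clusters. SB+Dox against SB asked what doxycycline did with the inhibitor present, and the same 3 genes rose, where 4.4% of the clusters rose, 2.71% fell and 7.11% changed. The median was 0.41 for the 7 genes and -0.04 for all clusters, and 4 of the 7 had separate groups, against 25% of all clusters. These comparisons share the SB arrays, so their opposite signs are not independent.

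The other comparisons rested on Myl4. SB+Dox against Dox, the effect of the inhibitor with doxycycline present, had 1 of 7 genes lower, where 3.43% of the clusters fell, 6.97% rose and 10.4% changed, and 3 of 7 with separate groups, against 29.1% of all clusters. Dox against control had 1 of 7 higher, where 1.43% of the clusters rose, 3.88% fell and 5.31% changed, and 4 of 7 with separate groups, against 20%. SB+Dox against control had 1 of 7 lower, where 2.42% of the clusters fell, 2.84% rose and 5.26% changed, and 3 of 7 with separate groups, against 23.2%. That last call was lost with Myl4 at adjusted p = 0.149 without control replicate 2, 0.197 without control replicate 3, 0.0597 without Dox replicate 2, 0.0551 without Dox replicate 3, 0.0653 without SB replicate 2, 0.189 without SB+Dox replicate 1 and 0.146 without SB+Dox replicate 2.

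The interaction compares the doxycycline change with the inhibitor to that without it. For Myl4 the 2 changes were 2.45 and 0.97, a difference of 1.48 (log2, SE 0.27, adjusted p = 0.024), where 0.895% of the clusters passed in either direction and 0.725% were positive. The call was lost without control replicate 3 (adjusted p = 0.0542), SB replicate 1 (0.0581), SB replicate 2 (0.0625) or SB+Dox replicate 3 (0.0611). Mylpf (0.77), Acta1 (0.70) and Actc1 (0.76) had positive differences that did not pass (adjusted p = 0.216, 0.113 and 0.518), and Myl1 had a negative one (-0.43, adjusted p = 0.58).

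For the 3 genes that fell in SB cells, the return toward control was expressed as the log2 difference of SB+Dox minus SB cells divided by that of control minus SB cells. It was 78.2% ± 8.92 for Myl4, 101% ± 8.36 for Mylpf and 129% ± 8.0 for Acta1 (SD over the 3 SB+Dox arrays). Leaving out 1 array at a time gave 73.4% to 82.3% for Myl4, 96.6% to 110.0% for Mylpf and 116% to 141% for Acta1. Quantile normalisation gave 116% for Acta1. The SB mean enters both terms of the ratio, and the values are a description with no test.

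The other light chains and actins of the genome gave a mixed picture. Of the 7 such light chains measured (Myl6, Myl6b, Myl7, Myl9, Myl10, Myl12a and Myl12b), only Myl9, the smooth muscle regulatory chain, fell in SB against control (7.21 ± 0.90 in SB and 9.0 ± 0.41 in control cells, 3.46-fold, adjusted p = 0.00514). Only Myl12a, a non-muscle regulatory chain, rose in SB+Dox against SB (1.32-fold, adjusted p = 0.0426), and it passed in 11 of the 21 alternatives. Their medians were -0.29 and 0.20 (log2). Of 4 other actins measured, the smooth muscle genes Actg2 (4.36-fold, adjusted p = 7.21e-06) and Acta2 (1.51-fold, adjusted p = 0.013) fell in SB against control. Acta2 did not pass without control replicate 2 (adjusted p = 0.0636) or SB replicate 1 (0.0614), or with every cluster tested (0.0524). Actg2 rose in SB+Dox against SB (1.66-fold, adjusted p = 0.0194), but not without SB replicate 1 (0.0984) or SB+Dox replicate 3 (0.112), or with every cluster tested (0.0724). Actb, cytoplasmic β-actin, had a difference of -0.13 in SB against control (log2, adjusted p = 0.546). Actg1 was on clusters of several symbols and was not analysed here.

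Partners of these proteins in the filaments changed in part. Of 15 thin filament partners 9 fell and 1 rose in SB against control, and 7 rose and 1 fell in SB+Dox against SB, with medians of -0.79 and 0.63. The 7 were not all among the 9. They included Tmod1 and fast troponin T (Tnnt3), which did not pass in SB against control (adjusted p = 0.0925). Among the 9, Tnnc2, Neb and Tnni1 passed in 14, 16 and 17 of the 21 alternatives and the others in all. Among the 7, Tnnt3 passed in 14, Tmod1 in 18 and the others in all. Cardiac and slow troponin C (Tnnc1) fell 4.27-fold in SB against control cells and rose 4.31-fold in SB+Dox against SB cells (adjusted p = 2.80e-05 and 5.83e-05). Fast troponin I (Tnni2) fell 2.31-fold and rose 3.17-fold in the same comparisons (adjusted p = 6.37e-04 and 9.01e-05). The gene that rose in SB cells was Tmod1, which caps the pointed end of the thin filament (1.57-fold, adjusted p = 0.0188). That rise did not pass without control replicate 3 (0.0777), SB replicate 1 (0.0524) or SB replicate 2 (0.0641), or with every cluster tested (0.0721). Tmod1 rose again in SB+Dox against SB (1.6-fold, adjusted p = 0.0139). The gene that fell in SB+Dox against SB was the tropomyosin gene Tpm3 (1.32-fold, adjusted p = 0.0213), which passed in 15 of the 21 alternatives. Tmod1, Tpm3, Tnnc2, Tnni1 and Tnnt3 were named after their values were seen. Of 18 thick filament partners and assembly factors 4 fell and 1 rose in SB against control, and 4 rose and 1 fell in SB+Dox against SB, with medians of -0.01 and 0.03. Of the 4 that fell, Myh1 passed in 16 of the 21 alternatives and the others in all. Of the 4 that rose, Myom1 passed in 20 and the others in all. Mybph, which encodes myosin-binding protein H, fell 3.57-fold in SB against control (adjusted p = 1.02e-05) and rose 2.17-fold in SB+Dox against SB (adjusted p = 7.90e-04). The M-band protein gene Myom2 fell 2.2-fold in SB against control (adjusted p = 0.0015) and rose 3.71-fold in SB+Dox against SB (adjusted p = 5.57e-05). The embryonic heavy chain gene Myh3 rose 3.1-fold in SB+Dox against SB (adjusted p = 0.00177), with a difference of -0.55 in SB against control (log2, adjusted p = 0.299). The genes that moved the other way were the chaperone gene Hsp90aa1, which rose in SB cells (1.45-fold, adjusted p = 0.00398), and Mybpc1, the slow myosin-binding protein C, which fell in SB+Dox against SB (1.84-fold, adjusted p = 0.0111, and 0.0515 with every cluster tested). These last 2 were also named after their values were seen. These lists were chosen with results of these data known, and their counts stand beside the shares of all clusters given above.

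**Figure D3:**
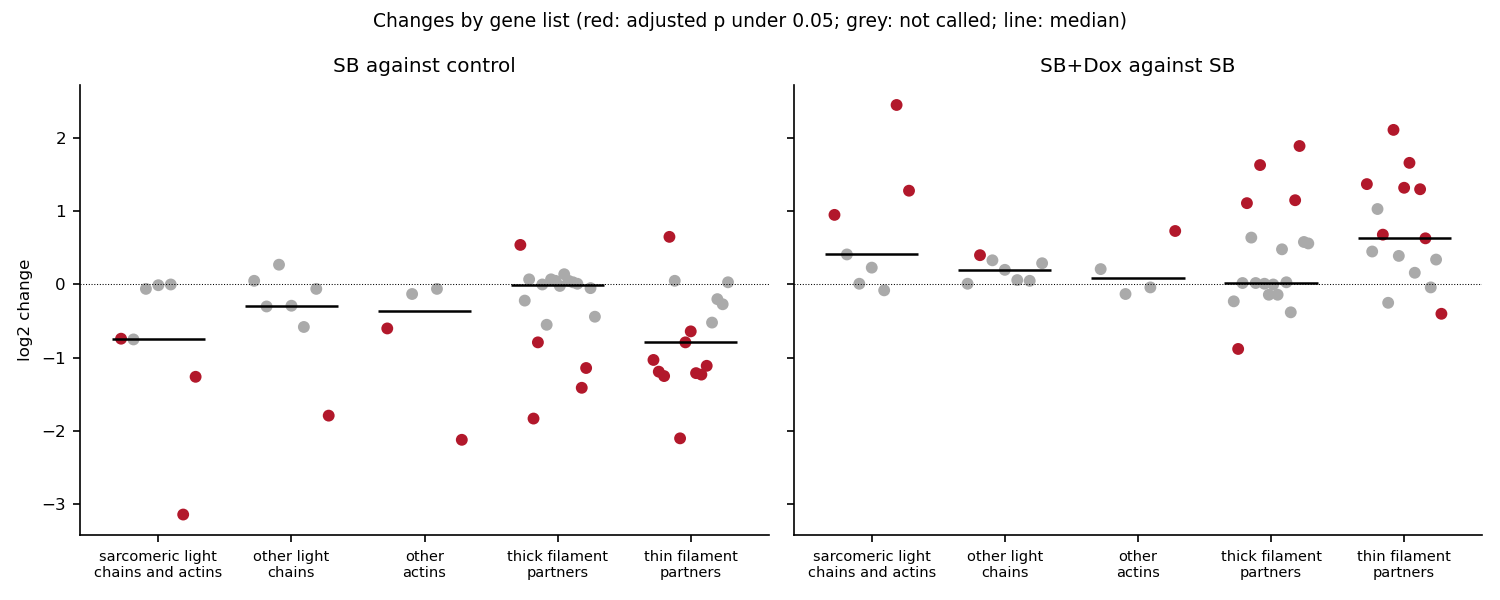
Log2 change (y axis) of each measured gene in 5 gene lists, for SB against control (left) and SB+Dox against SB (right), red where the adjusted p was under 0.05, with a line at each list's median. The median of the thin filament partners is -0.79 on the left and 0.63 on the right, and that of the thick filament partners lies near 0 in both.

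Among 14 measured regulators of these genes, 3 fell (Myog, Tead4 and Myod1) and 2 rose (Myf5 and Mrtfa) in SB against control. Myog had a signal of 8.33 ± 0.30 in SB+Dox, 7.70 ± 0.68 in SB, 10.37 ± 0.05 in Dox and 9.91 ± 0.26 in control cells, and its probes may read the endogenous transcript, the transgene or both. The labels describe SB cells as not expressing Myog. Its change in SB+Dox against SB was 0.64 (adjusted p = 0.157), beside the rises of Myl4, Mylpf and Acta1 in the same comparison. Tead4, a factor that binds MCAT elements, fell in SB against control (2.62-fold, adjusted p = 2.00e-04) and rose in SB+Dox against SB (1.61-fold, adjusted p = 0.0243). The rise did not pass without SB replicate 1 (0.112), SB+Dox replicate 2 (0.11) or SB+Dox replicate 3 (0.0954), with every cluster tested (0.0845) or with only the groups compared (0.0669). Myod1, Myf5 and Mrtfa passed in 15, 16 and 16 of the 21 alternatives, Mrtfa being named after its values were seen.

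Fibroblast markers differed between the groups. The summed signal of 5 such markers was 9.76 to 10.26 in SB+Dox, 10.73 to 11.16 in SB, 8.90 to 9.26 in Dox and 10.71 to 11.10 in control cells (log2 of the sum), set by Dcn and Col3a1, while Lum, Pdgfra and Thy1 had group means of 2.15 to 5.29. Of the 5, Dcn rose in SB against control (2.95-fold, adjusted p = 0.0118, but 0.0546 and 0.0594 without control replicates 1 and 2 and 0.0635 with every cluster tested) and Col3a1 fell in SB+Dox against SB (1.95-fold, adjusted p = 0.001). Dcn and Col3a1 fell in Dox against control, under all 21 alternatives, where the lowest log2 change of the 5 markers was -2.65. They rose in SB+Dox against Dox, where the highest was 3.15, Dcn under all 21 alternatives and Col3a1 under 17. Their part in the results on the light chains and actins was not tested. Fewer differentiated cells and less RNA of these genes per cell cannot be told apart in such bulk samples.

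The genes with the nearest patterns over the 12 arrays were found among 17328 others by the root mean square difference after each gene was centred on its mean. Predicted genes, microRNAs, snoRNAs and olfactory receptor genes were left out beforehand, by their symbols. For Mylpf the nearest was Tnnt2, the cardiac and embryonic troponin T, at 0.13, followed by Herpud1, a protein of the endoplasmic reticulum membrane, at 0.17. For Acta1 it was Chrng, the fetal subunit of the muscle acetylcholine receptor, at 0.09, followed by the transcription factor gene Nfil3 at 0.12. Actc1 was nearest to Tnnc2, fast troponin C, at 0.25, and to Igf1r, the receptor of insulin-like growth factor, at 0.28. The nearest to Myl4 were Tmem182, a muscle membrane protein, at 0.45 and Sorbs2, an adaptor of the Z-disc, at 0.53. The distance grows with a gene's own swing, whose SD over the 12 arrays was 1.61 for Myl4, 0.72 for Mylpf, 0.44 for Acta1 and 0.49 for Actc1, so distances are not comparable between these genes. Between members the smallest distance among the genes that changed was that of Mylpf and Acta1, at 0.31. The nearest to Myl1 were AI506816 and Mcur1, both at 0.16. For Myl2 and Myl3, which varied little, 4289 and 11704 genes lay within 0.2, and the nearest (Prl2b1 and Vmn2r83, Cage1 and Cnst) say little.

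**Figure D4:**
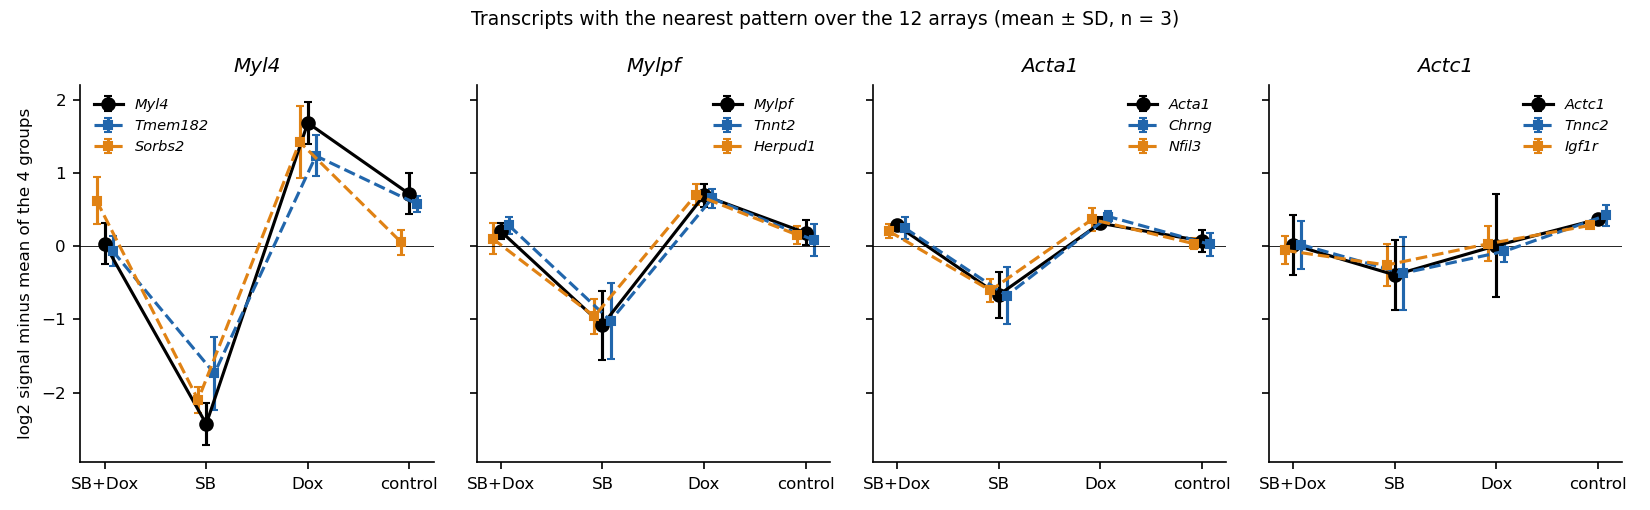
Log2 signal minus the mean of the 4 groups (y axis, mean ± SD, n = 3) in SB+Dox, SB, Dox and control cells for Myl4, Mylpf, Acta1 and Actc1 (black) and the 2 genes with the nearest pattern to each (dashed). The black lines of all 4 genes are lowest in SB cells, although the fall of Actc1 against control did not pass the test. Chrng follows Acta1 within a root mean square difference of 0.09.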

How the data were processed

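Total RNA was labelled and hybridised to Affymetrix whole-transcript arrays, 1 per sample. For each array the authors deposited a log2 signal per transcript cluster, summarised with RMA in Affymetrix Expression Console, per the submitters' processing notes; versions are not given in the sources used here. Of 35557 clusters, 21789 carried 1 gene symbol, 1621 several and 12147 none in the platform annotation, and those with 1 symbol were tested. Of these, 21698 matched the RefSeq gene table by Entrez identifier.

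In R 4.3.3, limma 3.58.1 estimated the 4 group means from all 12 arrays together (eBayes without trend, 8 residual and 6.56 prior degrees of freedom), and p-values were adjusted by Benjamini-Hochberg within each comparison over all 21789 clusters. The number of arrays, 3 per group, limits the precision. The code of the fit was also run on simulated data with independent noise of equal spread in all groups. That run cannot speak to correlated arrays or to unequal spreads. Promoter windows came from a RefSeq table. The alternatives were 2 other scalings, an eBayes trend, robust eBayes, array weights, all clusters tested, clusters under the 25th percentile left out, a replicate block, only the groups compared, and each array left out.

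All 7 members were named, with the 2 genes of nearest pattern to each and examples from each list among the 4 genes of largest change in a comparison. In the comparisons for which they are named, Tmod1, Tpm3, Tnnc2, Tnni1, Tnnt3, Hsp90aa1, Mybpc1 and Mrtfa were not among these 4. In other comparisons Tmod1 (log2 change 2.48 in SB+Dox against Dox) and Mybpc1 (-1.17 in Dox against control) led their lists. The members and lists were chosen with earlier results of these data known. Replicate numbers come from the sample titles. After removing group means, same-numbered arrays of SB+Dox and SB correlated at 0.44, 0.19 and 0.49, and those of SB+Dox and Dox at 0.09, 0.28 and 0.15. In both, each array correlated best with that of its own number, so the numbers pair these groups, more weakly for SB+Dox and Dox. Over all 18 such pairs the range was -0.14 to 0.49.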

Additional observations from a re-analysis of the deposited data

Results flagged for a closer look

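The doxycycline change of Myl4 differed with and without SB203580. It was 2.45 with the inhibitor and 0.97 without it, and the interaction of 1.48 passed the test over all clusters (log2, limma adjusted p = 0.024). Adjusted p ran from 2.48e-04 to 0.134 over 20 alternatives, of which 15 kept the call. The same test reads equally as a smaller change with the inhibitor in the presence of doxycycline (-1.66 for SB+Dox against Dox) than in its absence (-3.14 for SB against control).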

How the results depend on the processing

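Myl4, Mylpf and Acta1 passed in SB against control and in SB+Dox against SB under all 21 alternatives, and Myl4 did so in SB+Dox against Dox and in Dox against control. The number of the 7 genes passing in SB+Dox against Dox, 1 in the fit as reported, was 3 with array weights, 2 with the replicate block, 3 with only the groups compared and 1 to 3 with single arrays left out. In Dox against control it was 2 with array weights, 2 with only the groups compared and 1 to 2 with single arrays left out. In SB+Dox against control it was 0 with array medians centred or every cluster tested (limma, Myl4 at adjusted p = 0.0777 and 0.149) and 0 to 1 with single arrays left out. For the interaction it was 2 with array weights, 0 with every cluster tested (Myl4 at adjusted p = 0.134) and 0 to 1 with single arrays left out. The replicate block added Actc1 in SB against control (adjusted p = 0.048) and Mylpf in SB+Dox against Dox (0.044). It removed no call of these genes. Same-numbered arrays matched best throughout for SB+Dox with SB and for SB+Dox with Dox. For the other pairs of groups they did not, and the numbers were not shown to pair the arrays of any groups. The median return of the 3 genes was 101%, or 96.6% to 110.0% with single arrays left out. Values near 0 that never passed changed sign. In SB against control these were Myl2 (0.05 with array weights) and Myl3 (-0.04 centred, -0.05 quantile), in SB+Dox against SB Myl1 (-0.05 quantile), in SB+Dox against Dox Myl2 (0.01 quantile, 0.01 array weights) and Actc1 (-0.00 centred, -0.04 quantile), in Dox against control Myl3 (0.01 centred), in SB+Dox against control Mylpf (-0.03 quantile), and in the interaction Myl2 (0.02 centred, 0.07 quantile) and Myl3 (0.02 quantile). With single arrays left out, Myl1 ran from -0.34 to 0.10 in SB against control, -0.14 to 0.30 in SB+Dox against SB and -0.16 to 0.02 in SB+Dox against control, Myl2 from -0.09 to 0.08 in SB against control, -0.16 to 0.09 in SB+Dox against Dox and -0.15 to 0.10 in the interaction, Myl3 from -0.04 to 0.03 in SB against control and -0.07 to 0.01 in Dox against control, Acta1 from -0.07 to 0.01 and Actc1 from -0.39 to 0.22 in SB+Dox against Dox, Actc1 from -0.56 to 0.05 in Dox against control, and Mylpf from -0.04 to 0.12 in SB+Dox against control. The cause of these changes was not tested. Over all clusters the calls were 1390 in SB against control (779 to 2794 under the alternatives), 1550 in SB+Dox against SB (724 to 3076), 2265 in SB+Dox against Dox (1614 to 3019), 1156 in Dox against control (744 to 1831), 1146 in SB+Dox against control (644 to 1935) and 195 in the interaction (6 to 678). Each member had 1 cluster, so averaging over clusters was not run.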

Other observations

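The balance between isoforms shifted unequally, given here as the change of a log2 ratio on the same arrays and without a test. Myl1 over Myl4 was higher by 3.08 in SB than in control cells and lower in SB+Dox than in SB cells (-2.44), and the groups did not overlap in either comparison. Acta1 over Actc1 changed by 0.02 in SB against control, and by 0.55 in SB+Dox against control and 0.60 in Dox against control, where the groups did not overlap but the SD of the ratio was 0.36 in SB+Dox and 0.69 in Dox cells against 0.13 in control cells. With single arrays left out, the change ran from 0.20 to 0.82 in Dox against control and from 0.44 to 0.76 in SB+Dox against control.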
